A study of Mus musculus with 14 samples.

Results

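The thin filament of the smooth muscle cell was followed through 9 genes, out of 40481 in the bulk table, chosen by name with earlier results of these data known. They were the actins Acta2 and Actg2, the tropomyosins Tpm1 and Tpm2, and the actin-binding genes Cald1, Cnn1, Tagln, Smtn and Lmod1. The tissue was the muscularis, the layered muscle of the gut together with the nerve and interstitial cells inside it, from C57BL/6 mice. It was taken from colon and jejunum for 12 bulk RNA-seq libraries, with 3 libraries per genotype and region, and from colon for 2 libraries of single nuclei, with 1 library per genotype. The genotype labels are Carmn iKO and WT mTmG. They are written KO and WT here, and mTmG is a fluorescent Cre reporter allele. Carmn is a long noncoding RNA of smooth muscle, and the series title names its role in the contraction of visceral muscle as the subject. The sources used here do not give the age or treatment of the mice, how and in which cells Carmn was deleted, or whether KO mice also carried mTmG. Values of bulk libraries are always given in the order of their label tags, which is m1, t4 and t6 for KO colon, m1, t1 and t4 for KO jejunum, and t1, t6 and t7 for both WT groups. No source says whether libraries of a group came from separate mice, so p-values measure only the spread between these libraries, which may be technical.

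In smooth muscle, force arises where myosin heads pull on thin filaments built from actin. Tropomyosin lies along the filament, calponin (Cnn1) and caldesmon (Cald1) bind it and can restrain the actin-activated myosin, transgelin (Tagln) and smoothelin (Smtn) bind actin in contractile smooth muscle cells, and leiomodin 1 (Lmod1) starts new actin filaments. Actg2 is the actin typical of gut and other visceral muscle, whereas Acta2 is the one most used in vessels, and inherited damage to ACTG2 or LMOD1 in people causes visceral myopathy. Many of these genes are switched on by serum response factor (SRF) with its partner myocardin through a DNA element called the CArG box.

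On the mouse genome GRCm38 (GENCODE M21), the genes lie on the minus strand, for Acta2 at chr19:34241090-34255590, Actg2 at chr6:83512905-83536265, Tagln at chr9:45929619-45936058, Tpm1 at chr9:67022590-67049406, Tpm2 at chr4:43514711-43523765 and Smtn at chr11:3517523-3540612, and on the plus strand, for Cnn1 at chr9:22099216-22109630, Cald1 at chr6:34598500-34775473 and Lmod1 at chr1:135324807-135368065. Exons of Tagln overlap Pcsk7 and Gm48529 on the opposite strand, and exons of Smtn overlap Gm11946 and Gm11947. The sources do not say whether counting used strand, so reads of these 2 members and of their overlapping genes cannot be told apart.

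The start of the coding sequence of the actin pair is shown because the level of one actin relative to the other is compared below. It is given 5′ to 3′ from the transcripts Acta2-201 and Actg2-201, with capitals for bases that differ, or have no partner, in the alignment of the pair:
Acta2: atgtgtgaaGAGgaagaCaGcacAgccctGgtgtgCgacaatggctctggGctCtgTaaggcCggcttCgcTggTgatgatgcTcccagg
Actg2: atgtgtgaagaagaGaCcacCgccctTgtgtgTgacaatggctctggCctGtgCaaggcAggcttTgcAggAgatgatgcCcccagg
Over 1134 aligned coding positions the pair was 84.2% identical, and its longest identical run was 29 bases. Tpm1 and Tpm2 were 76.3% identical over 855 positions, with a longest identical run of 35 bases. The sources do not say how reads that match more than 1 gene were counted, so the level of each gene of these pairs carries that uncertainty.

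Promoter windows of 300 bases, from 250 before to 50 after the start, were taken from RefSeq (GRCm38.p6), which gave 8 windows for 7 of the 9 genes and none for Actg2 and Tagln. The CArG box, searched on both strands, was in 0 of these windows, against 1.63% of the 32851 windows of all genes. When 1 G or C was allowed in the central A and T run, 1 window held it, that of Acta2, with 2 boxes, against 8.50% of all windows. The MCAT element, GGAATG or CATTCC on the opposite strand, is bound by TEAD factors. It was searched after the windows had been read, and stood in 5 of the 8 windows (Acta2, Cald1, Lmod1, Smtn and Tpm1) against 14.7% of all. These sites are shown with the bases around them, 30 bases each in the direction of the gene, with the element in capitals. The Acta2 boxes start 84 and 34 bases before the RefSeq start, and the MCAT elements overlap neither box:
Acta2 first box, chr19:34255438-34255467, minus strand: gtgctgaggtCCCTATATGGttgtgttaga
Acta2 second box, chr19:34255388-34255417, minus strand: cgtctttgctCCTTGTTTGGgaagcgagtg
Acta2 MCAT, chr19:34255502-34255531, minus strand: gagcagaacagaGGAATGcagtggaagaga
Cald1 MCAT, chr6:34598339-34598368, plus strand: gagcatgcctagGGAATGacaggcatctgc
Lmod1 MCAT, chr1:135324671-135324700, plus strand: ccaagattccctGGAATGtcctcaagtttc
Smtn MCAT, chr11:3539497-3539526, minus strand: cggtttgtggcaCATTCCggactttggctt
Tpm1 MCAT, chr9:67049252-67049281, minus strand: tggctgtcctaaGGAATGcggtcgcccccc
A match is a description of letters and not a measured binding site, and a window without one says only that these letters are not in it.

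Bulk libraries held 24254905 to 44315104 counts, of which the 9 genes took 2.40% to 4.82%. Carmn, the targeted gene, went against the label in bulk, with 461, 304 and 718 CPM (counts per 1000000 counts, with library sizes scaled by TMM) in libraries labelled KO and 252, 171 and 351 in WT libraries of the colon. In jejunum it was at 996, 817 and 909 CPM in libraries labelled KO and 240.3, 206 and 326 CPM in WT libraries. In colon nuclei of the smooth muscle-like class it followed the label, at 1673 CPM in WT and 626 CPM in KO. In nuclei CPM is the number of UMIs (unique molecular identifiers, 1 for each captured molecule) per 1000000 UMIs of the class. The deleted part of Carmn is not stated, and counts outside that part would check nothing. Every bulk direction below rests on the labels. The library m1 of KO jejunum stood apart on the second principal component and held the highest summed smooth muscle markers of all libraries (66423 CPM for 7 markers). The library t4 of KO colon stood apart on the first component and held the lowest smooth muscle sum (27382 CPM) and the highest sum of 6 fibroblast markers (10239 CPM, against 2751 to 4635 in WT colon). Results are given with and without these 2 libraries where it matters.

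In WT muscularis the 9 genes covered a wide range of levels once counts were divided by exon length. In WT colon Actg2 (3893 ± 673 CPM per kilobase of exon, mean ± SD, n = 3), Tagln (3879.8 ± 417) and Acta2 (3547 ± 778) were highest and their libraries overlapped, so their order is not set by these data. Cnn1 followed at 1798 ± 282, below all 3 in every library. Tpm2 (1197 ± 224) and Tpm1 (933 ± 149) came next with overlapping ranges, Tpm2 being higher in 3 of 3 libraries. Smtn stood at 315 ± 87.4, and Cald1 (138 ± 20.1) and Lmod1 (132 ± 27.1) were lowest and overlapped. The order differed in WT jejunum, where Acta2 (2920.1 ± 151) led without overlap over Actg2 (2030.4 ± 240.0) and Tagln (1529.7 ± 128), and Cnn1 (653 ± 24.7) stood below both tropomyosins. All exons of a gene were merged for its length, which understates the level per kilobase of genes with many alternative exons such as Cald1.

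**Figure D1:**
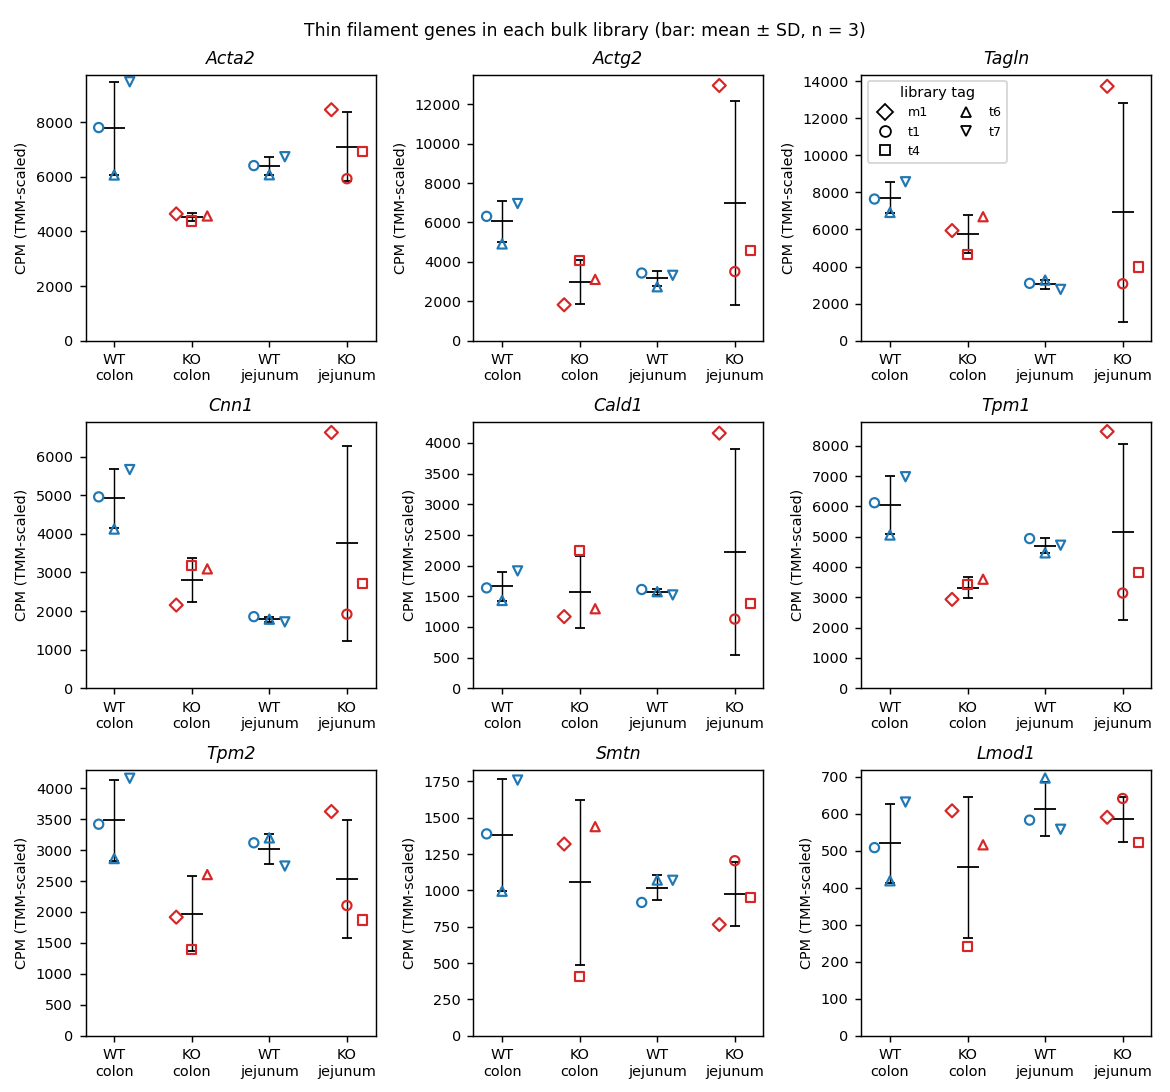
CPM of each gene in each of the 12 bulk libraries on a linear axis from 0, WT in blue and KO in red, with a marker shape for each library tag and a black bar for the mean ± SD of 3 libraries. In colon the KO points lie below the WT points for Acta2, Actg2, Tagln, Cnn1, Tpm1 and Tpm2, and in jejunum the library m1 of KO stands above all others for Actg2, Tagln, Cnn1, Cald1 and Tpm1.

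Among WT libraries, Cnn1, Tagln, Actg2 and Tpm1 were higher in every colon library than in every jejunum library, and the other 5 genes overlapped between the regions. Fitted levels were higher in colon for 8 of 9 genes and lower for 1, while 45.7% of all genes were lower. None of the 9 passed the test across all genes (edgeR quasi-likelihood test with Benjamini-Hochberg adjustment, threshold 0.05), which called 1.56% of 20886 genes. Of the 9, 2 had an unadjusted p under 0.05 against 13.1% of all. Genes higher in colon without overlap made up 11.2% of all genes, against 4 of 9 here, and without WT colon library t6 that count was 8 of 9. The share of all genes was not counted without t6, and smaller groups separate more easily. In bulk tissue, fewer cells of a type and less RNA per cell cannot be told apart.

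Cnn1, the calponin typical of differentiated smooth muscle, was at 4962, 4127 and 5669 CPM in WT colon and 1855, 1788 and 1719 CPM in WT jejunum. All 3 colon libraries were above all 3 of jejunum, and the log2 difference was 1.46 (standard error 0.40, edgeR adjusted p = 0.107). Tagln was at 7643, 6921 and 8575 CPM in colon and 3091, 3267 and 2765 CPM in jejunum, a log2 difference of 1.34 (standard error 0.47, edgeR adjusted p = 0.215). Both genes were called when only the 6 WT libraries entered the fit (edgeR adjusted p = 0.00677 for Cnn1 and 0.00785 for Tagln), which called 904 of 19412 genes. They were also called when the KO jejunum library m1, no part of this comparison, was left out of the shared estimate of the spread (edgeR adjusted p = 0.0105 and 0.0101). That fit called 557 of 21639 genes. DESeq2 called 1 of 9, Cnn1 (adjusted p = 0.0113, 4.85% of genes called), and limma voom called none (1.68%).

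Actg2, the visceral actin, was at 6311, 4910.3 and 6961 CPM in WT colon and 3433, 2735 and 3315 CPM in WT jejunum, without overlap, with a log2 difference of 0.94 (standard error 0.46, edgeR adjusted p = 0.418). Acta2 was at 7811, 6072 and 9488 CPM in colon and 6416, 6079.9 and 6741 CPM in jejunum, and these ranges overlapped. As a share of the pair on the scale of CPM per kilobase, Actg2 made up 53.3, 53.3 and 50.9% of Acta2 plus Actg2 in WT colon and 43.0, 38.8 and 41.0% in WT jejunum. The groups did not overlap, and with 3 libraries against 3 an exact permutation test cannot give a p below 0.1. For the tropomyosins no such shift was seen: Tpm2 made up 55.5, 55.8 and 57.1% of Tpm1 plus Tpm2 in WT colon and 58.5, 61.5 and 56.4% in WT jejunum, with overlap. Tpm1 alone was at 6120.2, 5055 and 6979 CPM against 4939, 4466 and 4718 CPM, barely apart, with a log2 difference of 0.36 (standard error 0.34, edgeR adjusted p = 0.745).

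**Figure D2:**
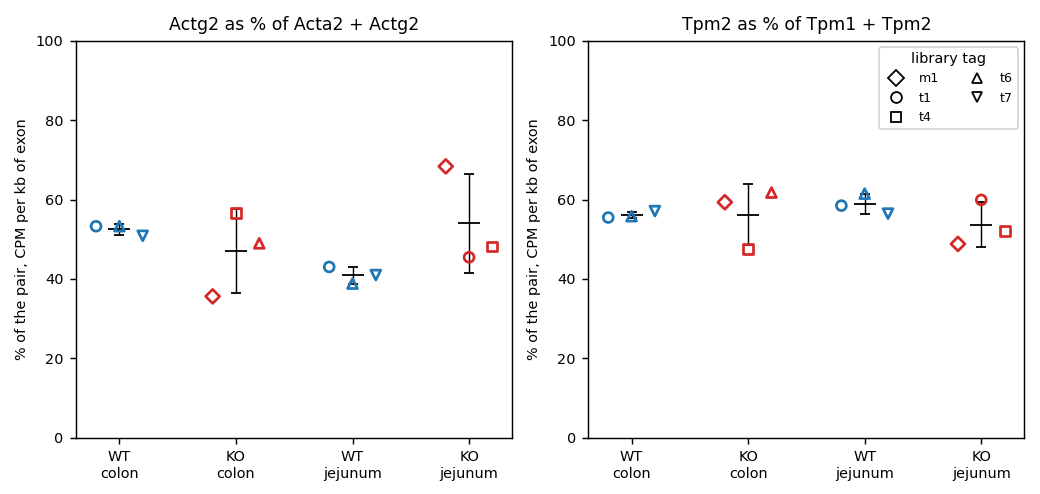
Share of Actg2 in the actin pair and of Tpm2 in the tropomyosin pair, in percent of the summed CPM per kilobase, for each bulk library (WT blue, KO red, marker shape by tag, black bar mean ± SD of 3). The Actg2 share of WT libraries lies between 50.9% and 53.3% in colon and between 38.8% and 43.0% in jejunum, and KO libraries spread from 35.6% to 68.3%.

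The remaining actin-binding genes differed little between the regions of WT mice. Lmod1 was the only one of the 9 with a lower mean in colon, at 508, 419 and 632 CPM against 583, 697 and 558 CPM in jejunum, and these ranges overlapped. Cald1 had a log2 difference of 0.082, Tpm2 of 0.21, Acta2 of 0.28 and Smtn of 0.44, against standard errors of 0.44, 0.31, 0.24 and 0.40. Over all genes tested the median log2 difference was 0.039, and over the 9 it was 0.36, or 0.17 without WT colon library t7. Summed markers of 7 smooth muscle genes outside the 9 overlapped between the regions (41642 to 62313 CPM in WT colon and 47243 to 55187 in WT jejunum), while those of 6 vascular mural genes were lower in every colon library (1214 to 1703 against 4095 to 5487 CPM). Sums were also lower in every colon library for mesothelial markers (at most 424 against at least 782 CPM), interstitial cell of Cajal markers (695 against 703) and skeletal muscle markers (84.4 against 116). Single genes were mixed in 3 of these lists. Above and below 0 in colon were 3 and 3 vascular mural, 2 and 2 interstitial cell of Cajal and 2 and 2 skeletal muscle genes. EdgeR called 1 skeletal muscle gene higher and 1 vascular mural gene lower. Of the mesothelial genes 5 of 5 were below 0. Sums were higher in every colon library for enteric glia markers (at least 128 against at most 107 CPM) and lymphatic endothelial markers (322 against 168). Of the 5 lymphatic endothelial markers, 5 were higher without overlap and 1 was called (0.694% of all genes called higher). Their part in the regional differences was not tested.

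In colon all 9 genes had a lower fitted level in libraries labelled KO than in WT libraries, and for 6 of them (Acta2, Actg2, Tagln, Cnn1, Tpm1 and Tpm2) every KO library was below every WT library. None of the 9 passed the edgeR test over all genes, which called 0.388% of genes. An unadjusted p under 0.05 was reached by 4 of 9, against 14.5% of all genes. That count was 1 without KO library m1, 1 without WT library t7 and 2 without WT library t1. Of all genes, 49.7% were below 0 and 10.4% were lower without overlap. The median log2 fold change was -0.78 over the 9 and 0.0043 over all genes. DESeq2 called 1 of 9, Acta2 (adjusted p = 0.0147; 4.33% of genes called), and limma voom called none (0.455%). Without the KO colon library t4, 8 of 9 were below 0 and 7 did not overlap. Lack of overlap is easier to reach with fewer libraries, and its share over all genes was not counted in that setting.

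Both actins were lower in every KO library. Acta2 was at 4645, 4383 and 4569.6 CPM in libraries labelled KO and 7811, 6072 and 9488 CPM in WT libraries. The 3 KO libraries lay close together, well below the lowest WT library, and the log2 fold change was -0.78 (standard error 0.24, edgeR adjusted p = 0.177). Actg2 was at 1820.3, 4058 and 3109 CPM in KO and 6311, 4910.3 and 6961 CPM in WT, again without overlap but with a wider spread, and its log2 fold change was -1.02 (standard error 0.46, edgeR adjusted p = 0.337). The Actg2 share of the pair was 35.6, 56.6 and 49.0% in KO colon, on both sides of the WT values.

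The tropomyosins were lower too, with Tpm1 at 2930.5, 3418 and 3596 CPM in KO and 6120.2, 5055 and 6979 CPM in WT. Its log2 fold change was -0.87 (standard error 0.34, edgeR adjusted p = 0.267). Tpm2 was at 1916, 1392 and 2605 CPM in KO and 3419, 2864 and 4162 CPM in WT, a log2 fold change of -0.82 (standard error 0.31, edgeR adjusted p = 0.252). Neither gene had a KO library within the WT range. Tpm2 made up 59.3, 47.6 and 61.8% of the pair in KO colon, a range that includes the WT values, so no shift between the tropomyosins was seen.

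Among the actin-binding genes, Cnn1 was at 2155, 3182 and 3094 CPM in KO and 4962, 4127 and 5669 CPM in WT, without overlap, with a log2 fold change of -0.81 (standard error 0.39, edgeR adjusted p = 0.375). Tagln was at 5942, 4639.8 and 6689.6 CPM in KO and 7643, 6921 and 8575 CPM in WT. The highest KO library lay just under the lowest WT library, and the log2 fold change was -0.42 (standard error 0.46, edgeR adjusted p = 0.739). Cald1, which is also made in many other cells as a shorter form, was at 1167, 2244 and 1296 CPM in KO and 1636, 1431 and 1913 CPM in WT. Its groups overlapped, with the highest value of all in KO library t4, and the log2 fold change was -0.081 (standard error 0.44, edgeR adjusted p = 0.962). Without KO library m1, without KO library t6 or without WT library t7 it turned above 0.

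Smtn and Lmod1 rested on a single library. Smtn was at 1319, 405 and 1439 CPM in KO and 1389, 994 and 1759 CPM in WT, so that t4 alone was below the WT range. Lmod1 was at 608, 240.1 and 516 CPM in KO and 508, 419 and 632 CPM in WT, again with only t4 below. With t4 the log2 fold changes were -0.39 for Smtn and -0.19 for Lmod1, and without it they were -0.0003 and 0.11. Acta2 (-0.76), Actg2 (-1.30), Cnn1 (-0.90) and Tpm1 (-0.89) kept their direction in that fit. Smooth muscle markers outside the 9 moved with these differences: 7 of 7 were below 0 in colon with a median of -0.66 (0 called by edgeR, 3 at an unadjusted p under 0.05), and their summed level was 27382 to 39505 CPM in KO and 41642 to 62313 CPM in WT. The sum of the skeletal muscle markers was lower in every KO library as well, at most 28.3 against at least 63.8 CPM. Their part in the result was not tested.

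**Figure D3:**
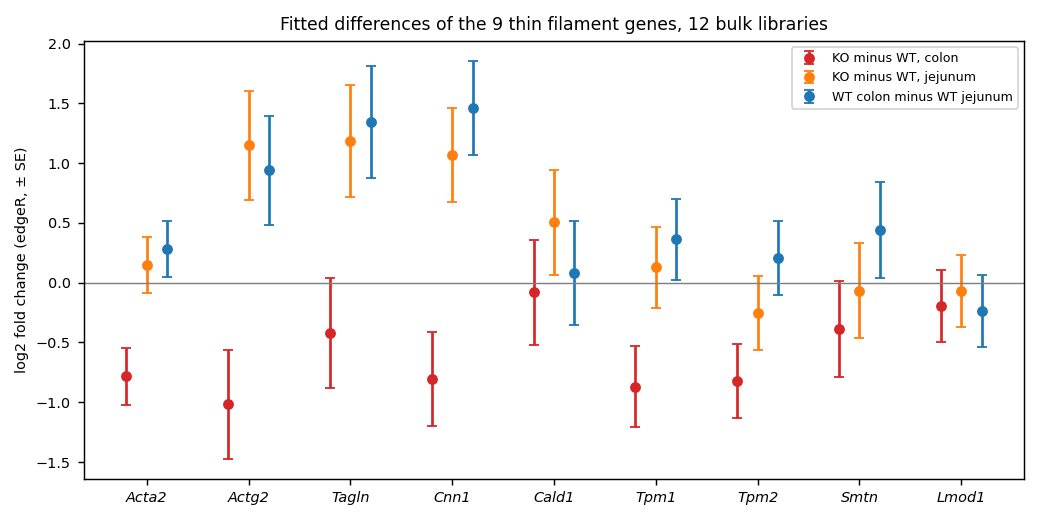
Log2 fold changes (points) with standard errors (bars) from the edgeR fit to 12 bulk libraries for KO minus WT in colon (red), KO minus WT in jejunum (orange) and WT colon minus WT jejunum (blue). All 9 red points lie below 0, from -1.02 for Actg2 to -0.081 for Cald1, and none of the 27 points passed the adjusted threshold.

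In jejunum the 9 genes did not move together: 6 had a fitted level above WT and 3 below, while 48.4% of all genes were below. Actg2 and Cnn1 were higher in every library labelled KO than in every WT library, against 11% of all genes. None of the 9 passed the edgeR test, which called 0.215% of genes, and 3 had an unadjusted p under 0.05 against 13.2% of all. DESeq2 and limma voom called none of the 9 either (3.56% and 0.364% of genes called). The median log2 fold change was 0.15 over the 9 and 0.018 over all genes. The median over the 9 was -0.023 without KO library m1, 0.37 without t1 and 0.29 without t4. Without t1, 4 of 9 were higher without overlap, a setting in which the share of all genes was not counted and fewer libraries separate more easily. The count at an unadjusted p under 0.05 was 1 without m1, 1 without WT library t1, 1 without WT library t6 and 0 without WT library t7.

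Actg2 was at 12956, 3506 and 4563 CPM in KO jejunum and 3433, 2735 and 3315 CPM in WT jejunum. The library m1 was far above the others, while t1 was just above the highest WT library. The log2 fold change was 1.15 (standard error 0.46, edgeR adjusted p = 0.318) with m1 and 0.32 without it. Cnn1 was at 6632, 1918 and 2717 CPM in KO and 1855, 1788 and 1719 CPM in WT, and its log2 fold change went from 1.07 (standard error 0.39, edgeR adjusted p = 0.278) to 0.35 without m1. Tagln, at 13728, 3069 and 3970.2 CPM in KO and 3091, 3267 and 2765 CPM in WT, overlapped between the groups and went from 1.19 (standard error 0.47, edgeR adjusted p = 0.311) to 0.18. The size of all 3 differences thus came mostly from 1 library.

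Tpm1, Tpm2 and Cald1 also depended on m1. Tpm1 was at 8473, 3140.1 and 3825 CPM in KO jejunum and 4939, 4466 and 4718 CPM in WT jejunum, so that m1 was above and the other KO libraries were below the WT range. Its log2 fold change was 0.13 with m1 and -0.46 without. Tpm2, at 3624, 2104 and 1871 CPM in KO and 3118, 3198 and 2743 CPM in WT, went from -0.25 to -0.63. Cald1, at 4161, 1127 and 1385 CPM in KO and 1609.8, 1574 and 1521 CPM in WT, went from 0.50 to -0.35. Without m1 these 3 genes were lower in both KO libraries than in every WT library. The share of all genes that separated in this way without m1 was not counted.

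Acta2 stayed near WT in jejunum, at 8465, 5936 and 6930.2 CPM in KO and 6416, 6079.9 and 6741 CPM in WT, with a log2 fold change of 0.15 (standard error 0.24, edgeR adjusted p = 0.833). Smtn was at 765, 1204 and 952 CPM in KO and 917, 1071 and 1069 CPM in WT, and here m1 was the lowest of all 6 libraries. Lmod1 was at 590.4, 641 and 522 CPM in KO and 583, 697 and 558 CPM in WT. The ranges of all 3 genes overlapped. The Actg2 share of the actin pair was 68.3, 45.4 and 48.2% in KO jejunum, above the WT jejunum values in all 3 libraries. Macrophage markers moved with these values: 5 of 5 were higher in every KO library (0 called by edgeR, 4 at an unadjusted p under 0.05), with summed levels of 383 to 896 CPM in KO and 118 to 264 CPM in WT. Summed vascular mural markers were lower in every KO library (2169.8 to 3504 against 4095 to 5487 CPM), blood endothelial markers were higher (214 to 384 against 91.9 to 196) and skeletal muscle markers were lower (41.4 to 92.3 against 116 to 129.9). A sum follows the most abundant genes of its list. Of the 6 vascular mural genes, 5 were above 0 in KO and 1 below, with a median log2 fold change of 0.40. Of 4 skeletal muscle genes tested, 2 were above 0 and 2 below. The part of these cell types was not tested.

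The difference between the colon change and the jejunum change was below 0 for all 9 genes, against 52.1% of all genes. It was -2.17 (standard error 0.65, edgeR adjusted p = 0.941) for Actg2, -1.88 (standard error 0.55, edgeR adjusted p = 0.941) for Cnn1, -1.61 (standard error 0.66, edgeR adjusted p = 0.941) for Tagln and -0.93 (standard error 0.34, edgeR adjusted p = 0.941) for Acta2 on the log2 scale, and closer to 0 for Lmod1 (-0.13) and Smtn (-0.32). None of the 9 and none of all genes passed the edgeR test (0%), with 4 of 9 at an unadjusted p under 0.05 against 4.16% of all. DESeq2 and limma voom called none of the 9 (0.145% and 0% of genes). Without KO jejunum m1 the difference shrank to -1.31 for Actg2 and -0.58 for Tagln, and 8 of 9 were below 0.

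Across the 12 libraries the 9 genes fell into a larger set and a pair. After each group's mean was removed, Cnn1 tracked Tpm1 (r = 0.98 on log2 CPM), Actg2 (0.96), Cald1 (0.94) and Tagln (0.89). Smtn tracked Lmod1 (0.92) but not Cnn1 (-0.31), Tpm1 (-0.19) or Cald1 (-0.55). Tpm2 stood between, at 0.82 with Tagln and 0.62 with Lmod1. These are descriptions over 12 libraries that share their groups, and KO colon t4 and KO jejunum m1 weigh heavily in them. Relative to Myh11, the smooth muscle myosin heavy chain of the thick filament, the same libraries stood out. The ratio of Actg2 to Myh11 in CPM was 0.148, 0.711 and 0.253 in KO colon and 0.747, 0.209 and 0.300 in KO jejunum, against 0.425, 0.366 and 0.353 in WT colon and 0.254, 0.175 and 0.208 in WT jejunum. KO colon t4 had the highest ratio of the 6 colon libraries and KO jejunum m1 the highest of the 6 jejunum libraries.

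The 5 other genes whose level most resembled the mean standardised log2 CPM of the 9 over the 12 libraries were Rnf34 (r = 0.89), Fam221b (0.86), Aktip (0.84), Bloc1s1 (0.83) and Sorbs2 (0.83). The members themselves ranged from 0.36 for Smtn to 0.93 for Tpm1, with Lmod1 at 0.39. Each member is part of that mean, which raises its r, so these values are no like-for-like comparison. The mean was highest in KO jejunum m1 and WT colon t7 and lowest in KO colon t4.

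Other contractile genes of the same cells were also mostly at a lower level in colon. Of 12 genes of the thick filament and its control (Hspb6 and myosin, phosphatase and kinase genes), 11 were below 0 in KO colon, against 49.7% of all genes. Without overlap 10 were lower, against 10.4% of all, and the median was -0.89. EdgeR called 1 lower (0.273% of all genes). That was Ppp1cb, a catalytic subunit of myosin phosphatase, at 185 to 217 CPM in KO and 441 to 496 CPM in WT, a log2 fold change of -1.24 (standard error 0.18, edgeR adjusted p = 0.0239). Hspb6, a small heat shock protein linked to relaxation, followed at -1.57 (standard error 0.30, edgeR adjusted p = 0.0568). In jejunum 9 of 12 were below 0 and 5 were lower without overlap, against 48.4% and 11.2% of all genes. There edgeR called 0 of 12, with 4 at an unadjusted p under 0.05. The median was -0.50, and the same 2 genes had the smallest p, at -0.74 and -1.17. In WT colon against WT jejunum Hspb6 had a log2 difference of -1.36 (standard error 0.30, edgeR adjusted p = 0.0481) and was the only one of the 12 called (0.862% of genes called lower), and Mylk, the myosin light chain kinase, had -1.07 (standard error 0.30, edgeR adjusted p = 0.118).

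Of 7 genes of the SRF axis, the transcription factors that act on CArG boxes, none was called in any of these comparisons. Srf had a log2 fold change of -0.62 (standard error 0.21, edgeR adjusted p = 0.219) in colon, at 172 to 228 CPM in KO and 235 to 374 CPM in WT without overlap, and of -0.47 in jejunum. Mrtfa, which carries the signal of free actin to SRF, had 0.35 in colon and 0.42 in jejunum. Between WT regions Mrtfa had 0.42 and Elk1, an SRF partner that can displace myocardin, -0.38. Counts at an unadjusted p under 0.05 were 1 of 7 in colon, 3 in jejunum and 2 between regions, beside 14.5%, 13.2% and 13.1% of all genes.

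The non-muscle and striated relatives of the 9 (other actins, tropomyosins, calponins, transgelins, leiomodins, tropomodulins and smoothelin-like genes) were looked at beside them. Of 17, Lmod2, Lmod3 and Smtnl1 were too low to test. In jejunum 14 of 14 were above 0 in libraries labelled KO, with a median of 0.47, and Cnn2, the calponin of non-muscle cells, was called (0.124% of genes called higher). It was at 345 to 559 CPM in KO and 132 to 140.3 CPM in WT, and its log2 fold change was 1.64 (standard error 0.23, edgeR adjusted p = 0.0188). Tpm4, a tropomyosin of the cytoskeleton, had 2.71 (standard error 0.53, edgeR adjusted p = 0.0736) there. In colon 10 of 14 were above 0, with 0 called by edgeR and 4 at an unadjusted p under 0.05, and with Cnn2 at 0.92 (standard error 0.23, edgeR adjusted p = 0.116) and Tpm4 at 1.80 (standard error 0.51, edgeR adjusted p = 0.151). Every KO colon library was above every WT colon library for Tpm4, at 303 to 661 against 119 to 134 CPM. Between WT regions Smtnl2 was called lower in colon, at -1.95 (standard error 0.36, edgeR adjusted p = 0.0238), and Actg1, a cytoplasmic actin, had 0.81 (standard error 0.20, edgeR adjusted p = 0.0823).

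The colon nuclei showed where the 9 genes are expressed. After filters, 2637 WT and 1594 KO nuclei remained of 3476 and 2164 barcodes, with a median of 1698 and 1984 UMIs, and the libraries shared 11 barcodes. A doublet caller marked only 2 and 1 nuclei, which means that doublets were in effect not removed. Clustering without the 9 genes gave 23 clusters, of which 6 were smooth muscle-like by their markers. They held 890 WT and 431 KO nuclei. Nuclear counts were not divided by length, so they are compared between classes and genotypes and not between genes.

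Acta2 stood at 1651 (WT) and 1786 (KO) CPM in smooth muscle-like nuclei, against 137 and 93.4 in enteric glia-like and 95.9 and 75.1 in enteric neuron-like nuclei. Among the other named classes it was highest in lymphatic endothelial-like nuclei, at 722 and 729, and it stood at 413 and 205 in macrophage-like nuclei. At least 1 Acta2 UMI was found in 86.2% and 85.8% of smooth muscle-like nuclei, with median depths of 1890.5 and 2336 UMIs. In macrophage-like nuclei, which should lack the gene, it was found in 14.3% and 12.9% at median depths of 1049 and 1035. The 34 and 47 Acta2 UMIs of this class sat in 7 and 18 nuclei. The part of free RNA and of doublets in this share was not tested. All 9 genes were highest in the smooth muscle-like class in both libraries. Cnn1 stood at 299.8 and 397 CPM there, against at most 184 in any other named class. No cluster was named vascular mural, so muscle nuclei of vessels were not compared as a class of their own. Which class holds them was not tested. An unnamed cluster of 49 WT and 36 KO nuclei had Acta2 at 496 and 324 CPM, with a UMI in 61.2% and 72.2% of its nuclei. Its median depths were 7820 and 13628.5 UMIs.

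Cald1 was also present outside muscle. It stood at 2126 (WT) and 2779 (KO) CPM in smooth muscle-like nuclei, and at 549 and 1049.9 in fibroblast-like, 555 and 742 in interstitial cell of Cajal-like and 487 and 705 in mesothelial-like nuclei. In fibroblast-like nuclei the KO library was above the WT library for Cald1 but not for Acta2 (202 and 129) or Tpm1 (439.7 and 345). Lymphatic endothelial-like nuclei, 47 in WT and 39 in KO, carried much signal as well, with Actg2 at 1529 and 1642 and Tpm1 at 1773 and 1586 CPM, but only 17.0% and 28.2% of them had an Actg2 UMI. The signal sat in a minority of these nuclei, and the part of doublets in it was not tested.

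**Figure D4:**
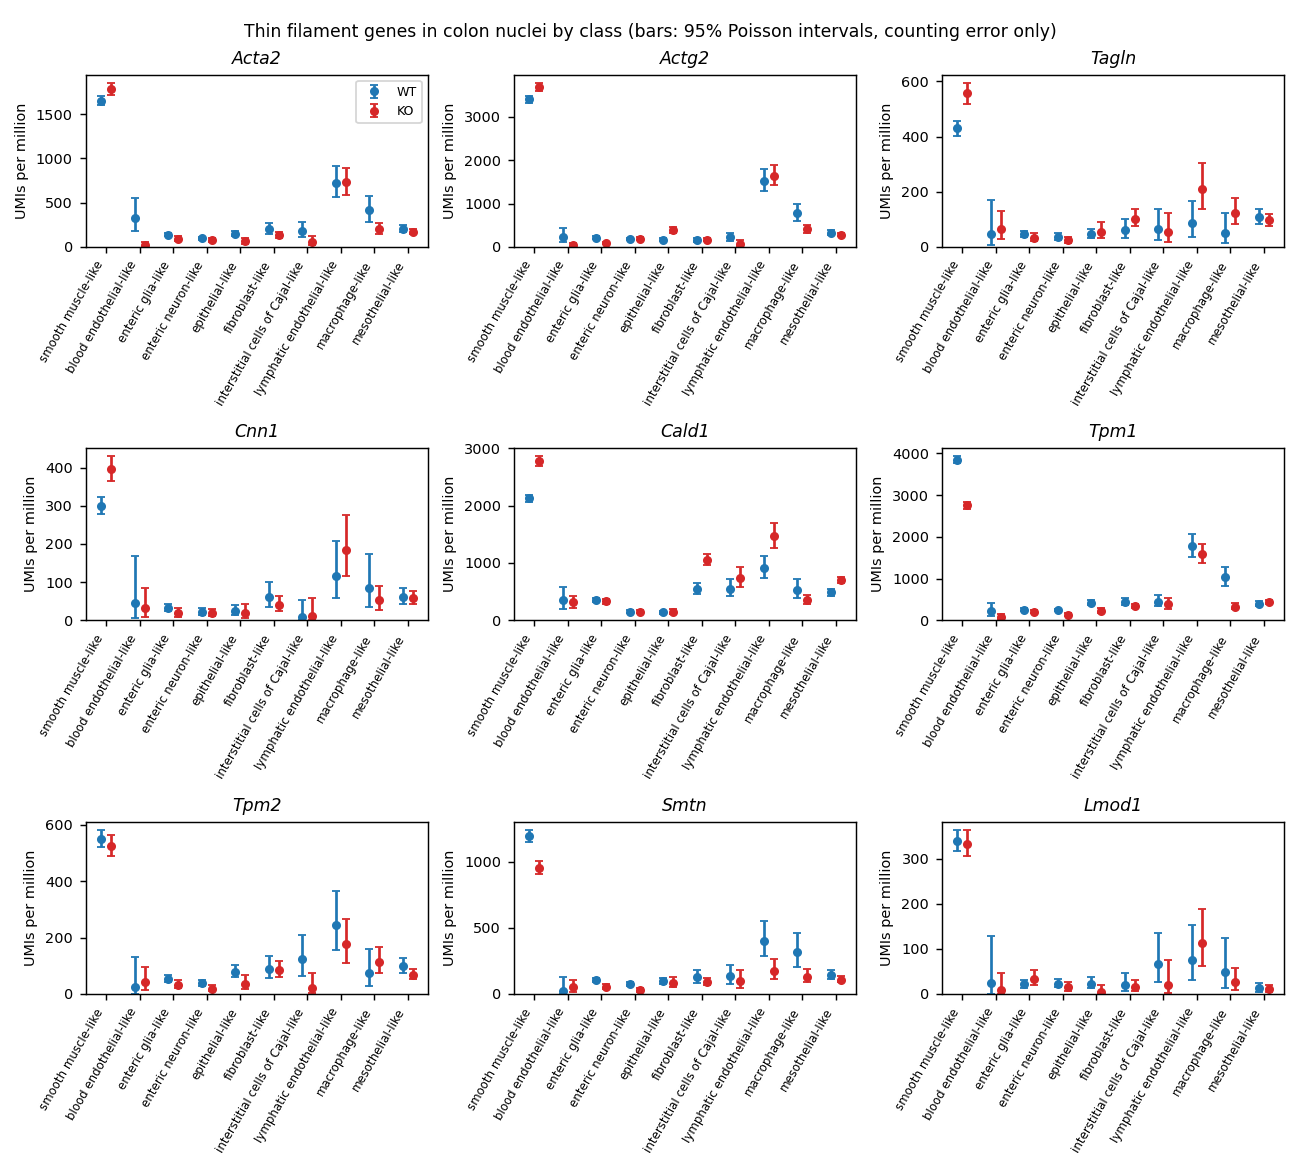
CPM of each gene, on linear axes from 0, in the named classes of colon nuclei that hold at least 20 nuclei per library, WT in blue and KO in red, with 95% Poisson intervals that cover counting error only. For each gene the smooth muscle-like class is the highest, as for Acta2 at 1651 in WT and 1786 in KO.

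Within smooth muscle-like nuclei the 9 genes were not uniformly lower. The ratio of KO to WT was below 1 for 4 of 9 genes, against 48.1% of 5233 genes with enough UMIs, and none of the 9 was past 1.5-fold in either direction (9.02% of genes lower and 11.4% higher). With 1 library per genotype there is no test, and the 95% intervals cover counting error only. Acta2 had a ratio of 1.08 (1.03 to 1.14) and Actg2 of 1.08 (1.05 to 1.12), beside bulk log2 fold changes of -0.78 and -1.02. Settings moved these 2 ratios by more than the counting error. With doublets kept and nuclei clustered anew, they were 1.04 (0.985 to 1.09) and 1.02 (0.988 to 1.06). With at least 1000 UMIs they were 1.06 (1.01 to 1.12) and 1.02 (0.988 to 1.06). Clustering at lower resolution gave 1.31 (1.21 to 1.41) and 1.27 (1.21 to 1.33). Higher in KO were Tagln with 1.30 (1.18 to 1.42), Cnn1 with 1.32 (1.18 to 1.48) and Cald1 with 1.31 (1.25 to 1.36). Lower were Tpm1 with 0.715 (0.689 to 0.742) and Smtn with 0.796 (0.746 to 0.848). With doublets kept these 2 were at 0.675 (0.650 to 0.701) and 0.768 (0.719 to 0.819). Tpm2 with 0.952 (0.871 to 1.04) and Lmod1 with 0.982 (0.877 to 1.10) had intervals that included 1. Over all nuclei of each library the ratios were 0.885 for Acta2, 0.933 for Actg2, 0.651 for Tpm1 and 0.651 for Smtn. Nuclear RNA and whole-tissue RNA are different measures, and the mice behind them are not said to be the same.

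The class was made of different nuclei in the 2 libraries. Cluster 0, led by Colec10 and Shisa6, held 29.4% of WT but 1.39% of KO smooth muscle-like nuclei, and cluster 16, led by Igfbp2 and Fgf7, 14.0% and 32.5%. Cluster 2, led by Ctla2a and Chrdl2, held 10.1% and 25.8%. Ratios within the 4 clusters with at least 50 nuclei per library differed from gene to gene. For Tpm1 the ratio was below 1 in 4 of 4, at 0.835, 0.748, 0.502 and 0.906 in clusters 2, 9, 15 and 16. Tpm2 did not follow it, at 0.747, 1.30, 1.05 and 1.23. Cnn1 and Tagln, higher over the class, were not higher in each cluster. Cnn1 was at 0.947, 1.19 and 0.570 (0.343 to 0.907) in clusters 2, 9 and 15, and higher in cluster 16 with an interval of 1.17 to 1.95. Tagln was at 0.991, 1.23, 0.939 and 1.24 (1.02 to 1.52) in clusters 2, 9, 15 and 16. Intervals not given for Cnn1 and Tagln included 1. The Tpm1 interval lay below 1 in each of the 4 clusters. The Tpm2 interval lay below 1 in cluster 2, above 1 in clusters 9 and 16, and included 1 in cluster 15. Smtn, lower over the class, was at 0.927, 1.07, 1.11 and 0.910, each with an interval that included 1.

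Cald1 was higher in KO in cluster 2, with a ratio of 1.84 (1.64 to 2.07), and in cluster 16, with 1.88 (1.69 to 2.09). In clusters 9 and 15 its ratios of 0.995 (0.909 to 1.09) and 0.960 (0.812 to 1.13) had intervals that included 1. Actg2 was higher in clusters 2 (1.12), 9 (1.22) and 16 (1.24) and lower in cluster 15, the shallowest of the 6 and led by Tinagl1, with a ratio of 0.632 (0.555 to 0.718). Acta2 was higher in cluster 9, at 1.45 (1.30 to 1.62). In clusters 2, 15 and 16 it was at 0.930 (0.824 to 1.05), 1.16 (0.984 to 1.36) and 0.913 (0.821 to 1.02), intervals that included 1. Among WT clusters Actg2 ranged from 1166 CPM in cluster 1, led by Grin3a, to 4864 in cluster 15, and Acta2 from 939.5 to 2075. Markers of other cell types in the class differed between the libraries: the 6 fibroblast markers summed to 1500.5 CPM in WT and 2329.9 in KO, the 6 vascular mural markers to 488 and 910.2, and the 7 smooth muscle markers to 21591 and 17717. Their part in the ratios was not tested.

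**Figure D5:**
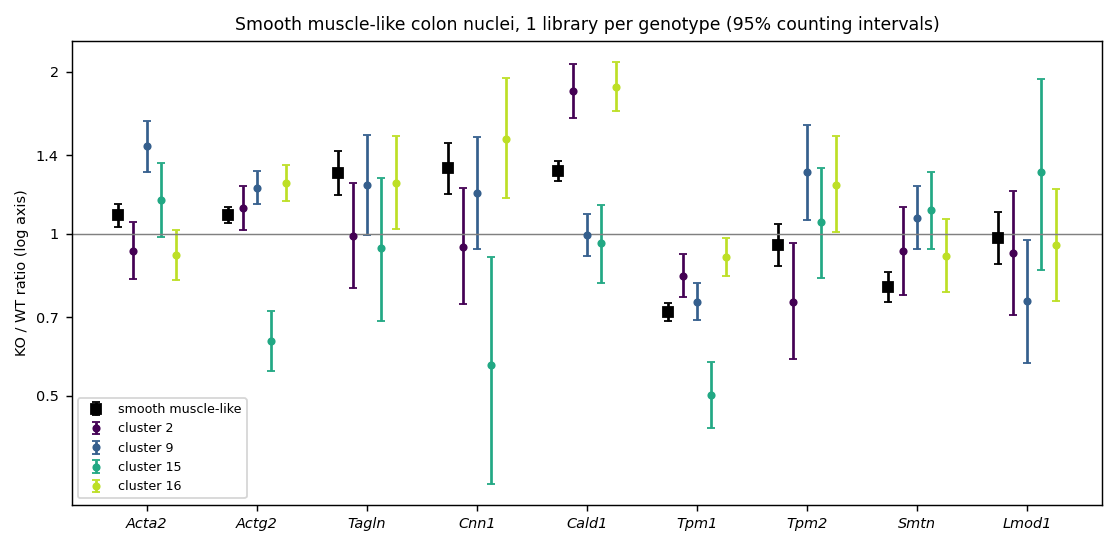
Ratio of KO to WT CPM on a log axis, for the whole smooth muscle-like class (black squares) and for clusters 2, 9, 15 and 16 (coloured points), with 95% counting intervals and 1 library per genotype. Tpm1 lies below 1 in every cluster shown, from 0.502 to 0.906, while Cald1 lies at 1.84 and 1.88 in clusters 2 and 16 and at 0.995 and 0.960 in clusters 9 and 15.

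Of the 12 genes of the thick filament and its control, 11 had a ratio below 1 in the same nuclei, beside 48.1% of genes with enough UMIs. The interval lay below 1 for 7, included 1 for 4 and lay above 1 for 1. Myh11 was at 0.733 (0.717 to 0.749), Mylk at 0.658 (0.617 to 0.702) and Ppp1cb at 0.638 (0.580 to 0.701), while Ppp1r12b, a targeting subunit of myosin phosphatase, was at 0.970 (0.921 to 1.02). Rock2, a kinase that inhibits myosin phosphatase, was the gene above 1, at 1.87 (1.72 to 2.04). Of the 7 genes of the SRF axis, 6 had intervals that included 1, among them Myocd at 0.971 (0.886 to 1.06), and Elk3, an SRF partner, was at 4.37 (2.95 to 6.62) from 35 and 100 UMIs. Of the 17 relatives, 11 had UMIs in both libraries. Of these, 6 had an interval above 1, 2 below and 3 including 1. Tpm4 was at 1.67 (1.38 to 2.03) and Tpm3 at 2.11 (1.51 to 2.97), from 63 and 87 UMIs of Tpm3. Tmod1, which caps the slow-growing end of actin filaments, was at 0.487 (0.335 to 0.694) and Actb at 0.907, with an interval that ended just below 1. No UMI of the striated actins Acta1 and Actc1 was found in the class.

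The same nuclei carried counts of accessible chromatin. A called region overlapped the window from 1000 bases before to 100 bases after the GENCODE start of 5 of the 9 genes in WT nuclei (Acta2, Actg2, Cald1, Tpm1 and Tpm2) and of 3 in KO nuclei (Acta2, Cald1 and Tpm2), against 48.5% and 41.3% of 22028 protein-coding genes. Regions were called by the authors in each library separately, 35003 in WT and 26493 in KO, so a region missing from one list is not a measured loss. Smtn had a region in both libraries at its RefSeq start, which lies inside the GENCODE gene.

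At Acta2 the WT region, chr19:34255117-34256109, spans both CArG-like boxes and the MCAT element shown above. It held 110.2 CPM (of all region counts) in smooth muscle-like nuclei and 19.5 in all other nuclei, and the KO region, chr19:34255120-34256126, held 148 and 30.5. At Actg2 the WT region, chr6:83536112-83537177, held 110.2 and 20.6 in the same order. The Tpm1 region of WT, chr9:67048994-67049878, which spans its MCAT element, was less restricted, with 113 and 46.1. For Tpm2 the values were 77.1 and 28.9 in WT and 155 and 63.9 in KO. For Cald1 they were 51.0 and 16.1 in WT and 65.4 and 37.9 in KO. At the RefSeq start of Smtn they were 145 and 54.5 in WT and 111 and 87.0 in KO. In each case the smooth muscle-like value was the higher one. The counts behind these values were few, 27 to 105 per region in smooth muscle-like nuclei, from 12 to 53 nuclei with any count. Unlike gene values, region values were not halved, although only 11.6% (WT) and 11.5% (KO) of them were odd.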

How the data were processed

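For bulk libraries the authors deposited raw counts per Ensembl gene, of which 276 repeats among 40757 entries were dropped; STAR 2.0.4b and featureCounts 1.4.5 stand in the submitters' processing notes, with builds GRCm38 and mm10. Matrices of nuclei came from cellranger-arc-2.0.0 and hold counts per gene and per region, as deposited; all deposited gene counts were even and were divided by 2 to give UMIs, an inference from the values. Counts of 20886 genes kept by filterByExpr were TMM-scaled and fitted with edgeR 4.0.16 (R 4.3.3; robust quasi-likelihood, 12 libraries, 1 mean per group), adjusted by Benjamini-Hochberg over all genes at 0.05; the fit was tested on simulated data. A standard error is the absolute log2 fold change over the root of F. Alternatives used DESeq2 1.42.0, limma 3.58.1, other scalings, filters and left-out libraries. Nuclei needed 500 UMIs and at most 5% mitochondrial UMIs, and were clustered with scanpy 1.11.5 (resolution 1) without the 9 genes; classes needed 3 markers. Poisson and ratio intervals are exact, at 95%. The 9 genes, lists and tests were chosen with earlier results of these data known. Named are all 9, in each list the 2 genes with the smallest p per comparison, and the 5 genes most like the 9; genes named from nuclei lists, other than these, and the MCAT search were chosen after values were seen.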

Additional observations from a re-analysis of the deposited data

Results flagged for a closer look

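Actg2 and Cnn1 each had every library labelled KO below every WT library in colon and every library labelled KO above every WT library in jejunum. The share of all genes that separated in both of these ways was not counted, so how unusual this pattern is cannot be said. The difference between the changes was -2.17 on the log2 scale for Actg2 (adjusted p = 0.941) and -1.88 for Cnn1 (adjusted p = 0.941), so the edgeR test of the difference itself did not pass the threshold. Without the KO jejunum library m1 the differences were -1.31 and -1.13, and the opposite directions were still present in the remaining libraries.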

How the results depend on the processing

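With 3 libraries per group that differ widely in the KO groups, differences of the size seen here mostly missed the threshold, and 2 libraries of nuclei give no replicate check. The number of genes called out of 9 was 0 in colon, 1 with DESeq2. Between WT regions it was 0, but 1 with total counts (269 of 20886 genes called) or DESeq2 and 2 with only the groups compared (904 of 19412). It ranged from 0 to 2 over single left-out libraries (2 without KO jejunum m1, where 557 of 21639 genes were called). It was also 2 without both KO colon t4 and KO jejunum m1 (1056 of 21452), an alternative added after the data were seen. In jejunum and for the difference it was 0 throughout. Whether a shared label tag marks the same mouse or batch is not stated. Same-tag correlations of deviations from the group means were 0.10, -0.01 and 0.06 in WT and -0.16 and -0.09 in KO, so the tags were not used as pairs. With the tag as a replicate block, 0 of 9 genes were called between WT regions (29 genes in all) and 0 for the difference (Actg2 -2.43, Cnn1 -2.15). Directions turned for these genes. With 1 library left out, the colon change ranged from -0.43 to 0.093 for Cald1 and -0.46 to 0.11 for Lmod1, the jejunum change from -0.023 to 0.25 for Acta2, -0.35 to 0.81 for Cald1, -0.46 to 0.37 for Tpm1, -0.26 to 0.055 for Smtn and -0.15 to 0.029 for Lmod1, the difference from -0.93 to 0.30 for Cald1, -0.59 to 0.065 for Smtn and -0.39 to 0.18 for Lmod1, and the regional difference of Cald1 from -0.088 to 0.12. Without both KO colon t4 and KO jejunum m1, the colon change was 0.014 for Smtn and 0.13 for Lmod1, the jejunum change -0.022 for Acta2, -0.35 for Cald1, -0.46 for Tpm1 and 0.055 for Smtn, and the difference 0.023 for Tpm2 and 0.23 for Lmod1. Total counts gave -0.00012 for Tpm1 in jejunum. In nuclei, 4 of 9 ratios were below 1 and 2 of 9 with clustering at lower resolution, whose class held other nuclei (624 WT and 149 KO, not 890 and 431) and where Smtn was at 1.12. Over all nuclei Acta2 was at 0.885 and Actg2 at 0.933; the geometric mean of within-cluster ratios, also added later, was 0.991 for Cnn1 and 1.0003 for Smtn. The cause of these changes was not tested. With a window of 250 bases before to 50 after the start, a region was called for 4 genes in WT and 2 in KO.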
